A study of Mus musculus with 24 samples.

Results

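The genes of 10 secreted serum proteins, Afp, Alb, Ttr, Trf, Rbp4, Apob, Apoa1, Apoa2, Apoa4 and Apom, were followed in differentiating mouse embryonic stem cells. They are 10 of the 19938 genes that could be measured by a probe set annotated to 1 symbol alone, and each had 1 such probe set, so no choice between probe sets was needed. The genes were chosen by name, as products of visceral endoderm, with earlier results of these data known. The samples were embryoid bodies (EBs), aggregates in which embryonic stem cells differentiate, made from the mouse line 46C, an embryonic stem cell line with a fluorescent reporter in its Sox1 locus. Differentiation started on gelatin with LIF on day 1, the cells went into low attachment dishes on day 3, the EBs were plated on day 7, and serum-free medium was given from day 8. The untreated groups were EBs of days 4, 6, 8 and 12 with no drug, and the treated groups were EBs of the same days kept from day 3 to day 8 in cyclosporin A at 1 ug/ml together with FK506 at 100 ng/ml. Both drugs inhibit calcineurin, a calcium-dependent phosphatase, and they were given only in combination, so neither can be told apart from the other, and day 12 lies after the drugs were withdrawn. Each of the 8 groups held 3 arrays, which the labels number as biological replicates, and all came from 1 cell line. The study's title names neural induction and the BMP pathway as its subject, and the serum protein genes are a readout of another tissue in the same cultures.

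Visceral endoderm is the outer epithelium of the early mouse embryo and of many EBs. It takes up maternal nutrients at its outer face, and it makes the serum proteins of the embryo before the liver does. Hepatocytes use the same genes later, under factors such as HNF4A, HNF1 and the FOXA proteins. Alpha-fetoprotein (Afp) and albumin (Alb) are related bulk serum proteins, transthyretin (Ttr) and retinol-binding protein (Rbp4) carry thyroid hormone and vitamin A, and transferrin (Trf) carries iron. Apolipoprotein B (Apob) is the backbone of secreted lipoprotein particles, Apoa1, Apoa2 and Apoa4 are apolipoproteins of high density and intestinal particles, and Apom is a small lipocalin bound to such particles.

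Promoters are shown for 6 starts of 6 members because these genes fell into different patterns below: Afp and Alb are neighbours whose treatment difference was called on day 12 alone, Apoa1 and Apoa4 lie close together and differ in call, and Rbp4 and Apom were called on day 8. Sequences are the 250 bases before the annotated start, from RefSeq on GRCm38.p6, 5′ to 3′ on the gene's strand. Windows were kept for 8 of the 10 members, with 10 starts in all. The selection left out the entries of a chromosome, so a missing window does not mean a missing promoter. Ttr and Trf have no window here and are named only, and the counts below do not cover them. Trf lies on chromosome 9, as Apoa1 and Apoa4 do, so the left-out chromosome does not account for its missing window. The Afp window is chr5:90490464-90490713 (plus strand), that of Alb chr5:90460620-90460869 (plus), that of Apoa1 chr9:46228380-46228629 (plus) and that of Apoa4 chr9:46240594-46240843 (plus). The window of Rbp4, at the upstream one of its 2 starts, is chr19:38125322-38125571 (minus), and that of Apom is chr17:35131802-35132051 (minus). Capitals mark matches on either strand to short cores. The core searched for was GTTAAT for HNF1, while HNF4 was searched for with CAAAGTC and the FOXA proteins with TGTTTNC. For GATA factors the core was AGATAA. The promoter box of RNA polymerase II genes was taken as TATAAA.
Afp: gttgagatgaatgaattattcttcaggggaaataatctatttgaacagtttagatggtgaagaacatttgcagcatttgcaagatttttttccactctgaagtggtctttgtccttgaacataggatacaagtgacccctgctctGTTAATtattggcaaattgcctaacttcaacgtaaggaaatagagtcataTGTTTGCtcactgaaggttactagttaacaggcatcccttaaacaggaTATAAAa
Alb: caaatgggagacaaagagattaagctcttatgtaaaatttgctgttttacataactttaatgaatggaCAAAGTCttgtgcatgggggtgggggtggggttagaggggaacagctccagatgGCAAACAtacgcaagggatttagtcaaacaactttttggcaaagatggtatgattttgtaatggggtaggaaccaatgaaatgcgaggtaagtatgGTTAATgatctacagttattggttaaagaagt
Apoa1: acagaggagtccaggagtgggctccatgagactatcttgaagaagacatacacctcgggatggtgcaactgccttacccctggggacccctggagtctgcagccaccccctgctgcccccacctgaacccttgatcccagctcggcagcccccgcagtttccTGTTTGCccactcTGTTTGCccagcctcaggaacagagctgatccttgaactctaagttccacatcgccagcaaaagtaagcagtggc
Apoa4: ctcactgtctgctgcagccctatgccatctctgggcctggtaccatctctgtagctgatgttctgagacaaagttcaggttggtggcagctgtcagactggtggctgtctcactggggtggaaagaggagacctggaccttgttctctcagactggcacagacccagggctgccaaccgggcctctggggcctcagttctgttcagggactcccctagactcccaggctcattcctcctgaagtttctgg
Rbp4: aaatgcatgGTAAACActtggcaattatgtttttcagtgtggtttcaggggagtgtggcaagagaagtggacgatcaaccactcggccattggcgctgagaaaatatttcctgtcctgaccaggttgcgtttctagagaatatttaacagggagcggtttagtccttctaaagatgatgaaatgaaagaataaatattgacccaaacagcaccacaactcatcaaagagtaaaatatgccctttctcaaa
Apom: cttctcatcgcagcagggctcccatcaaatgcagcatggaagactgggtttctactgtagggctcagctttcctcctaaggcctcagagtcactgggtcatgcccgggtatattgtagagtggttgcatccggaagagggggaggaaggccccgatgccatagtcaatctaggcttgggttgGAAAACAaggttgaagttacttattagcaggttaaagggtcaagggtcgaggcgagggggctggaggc
A FOXA core was found in 7 of the 10 windows, 1 for each of 7 members, beside 17.8% of all 32851 promoter windows of that length. Apoa1 held this core at 2 places, in the same letters. The HNF1 core was found in 2 of the 10 (Afp and Alb; 6.43% of all windows), the HNF4 core in 1 (Alb; 3.84%), the TATA box in 4 (12.4%) and the GATA core in 0 (9.99%), and no cores overlapped in the printed windows. Apoa4 held none of the 5 cores in its window. A match is a description of letters and not of a bound site, some members have several starts, and the windows say nothing of enhancers further away.

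The arrays were of the Affymetrix Mouse Gene ST type, and values are log2 signals. Array medians lay between 7.80 and 7.88 on that scale, and the median SE of a treatment difference over all genes was 0.09. A gene is called changed where limma's adjusted p, over all 19938 genes, lies under 0.05. No detection calls came with the values, so a low signal was not shown to lie above background. Signals were not compared between genes, apart from the 40th percentile of mean level used below. EBs are mixtures, so a lower or higher signal may reflect fewer or more cells of a type or a change of RNA per cell, and these cannot be told apart here. The levels of all members by day are plotted for every array.

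**Figure D1:**
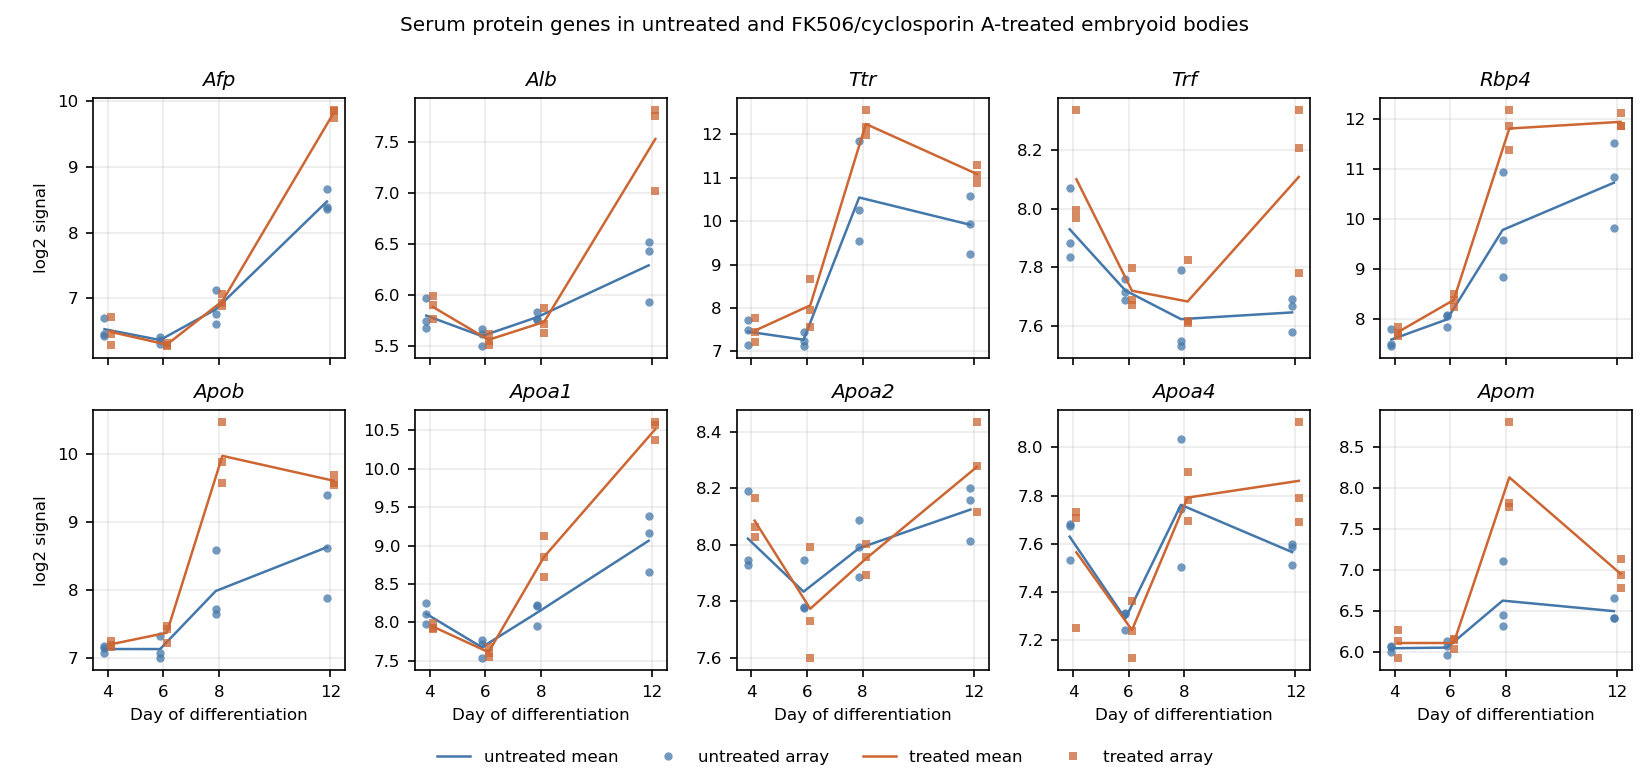
Log2 signal (y axis, 1 scale per gene) against day of differentiation (x axis) for the 10 members, with circles for the 3 untreated and squares for the 3 treated arrays of each day and lines through the group means. Treated arrays lie above all untreated ones at day 8 in Ttr, Rbp4, Apob, Apoa1 and Apom, and in Ttr and Rbp4 also at day 6. At day 12 they do so in every member but Apoa2, which moves within a narrow range.

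In untreated EBs the group means of all members but Trf were lowest on day 4 or day 6. From day 4 to day 6, 2 of the 10 fell (Apoa1 by 0.44 and Apoa4 by 0.34; adjusted p = 0.0174 and 0.035) and 0 rose, beside 20.9% of all genes called lower and 21.1% called higher. The Apoa1 signal was 8.11 ± 0.14 on day 4 and 7.68 ± 0.13 on day 6 (SD, n = 3), and that of Apoa4 went from 7.63 ± 0.08 to 7.29 ± 0.04. These falls are small: of the 6 fits without 1 array, 5 lost the Apoa4 call (-0.35 to -0.32, adjusted p up to 0.103) and 2 that of Apoa1 (-0.37 and -0.36, up to 0.0807).

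From day 6 to day 8, 7 of 10 members rose in untreated EBs (17.8% of all genes were called higher) and 0 fell (18.3% lower). Ttr went from 7.27 ± 0.16 to 10.54 ± 1.17, and Rbp4 from 7.99 ± 0.14 to 9.78 ± 1.06 (difference 1.79, SE 0.37, adjusted p = 0.000889). The other rises were below 1 on the log2 scale: Apob 0.86, Apom 0.57, Apoa4 0.47, Afp 0.47 and Apoa1 0.45. The wide SD of Ttr and Rbp4 on day 8 came with 1 array far above the others, untreated replicate 1. Without that array 3 of the 7 calls remained, since Apob (0.55, adjusted p = 0.14), Apom (0.33, 0.227), Apoa1 (0.41, 0.0706) and Apoa4 (0.34, 0.0633) missed the threshold. Without untreated day 6 replicate 3, 4 remained, since Apob (0.79, 0.0593) and Apoa1 (0.38, 0.0768) missed it as well as Apom (0.61, 0.0517). Apom also missed it without untreated day 6 replicate 1 (0.53, 0.0816) or replicate 2 (0.58, 0.0674), and Apoa1 without untreated day 8 replicate 2 (0.41, 0.0587).

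From day 8 to day 12 Alb joined the members that rose. In untreated EBs 4 rose (18.8% of all genes called higher) and 0 fell (19.9% lower): Afp by 1.64, Apoa1 by 0.93, Rbp4 by 0.94 and Alb by 0.51. Alb had stood at 5.59 to 5.79 in the untreated group means of days 4, 6 and 8, and its day 12 arrays read 6.43, 5.93 and 6.51. The Rbp4 call was a near one (adjusted p = 0.0454). It was lost in 4 of the 6 fits without 1 array (untreated day 8 replicate 2, 0.47 and adjusted p = 0.327; replicate 3, 0.84 and 0.117; untreated day 12 replicate 2, 0.55 and 0.286; replicate 3, 0.89 and 0.107). The Alb call was lost without untreated day 12 replicate 1 (0.44, 0.0586) or replicate 3 (0.40, 0.078). For Ttr the untreated difference was -0.63 (adjusted p = 0.214), which passed the threshold only without untreated day 8 replicate 2 (-1.13, 0.0248). Apob differed by 0.65 (0.0609), which passed it without untreated day 8 replicate 1 (0.95, 0.0081) or untreated day 12 replicate 1 (1.02, 0.00249).

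In treated EBs, 0 members rose and 3 fell from day 4 to day 6 (Trf by 0.38, Apoa4 by 0.32 and Apoa2 by 0.31; 19.1% of all genes were called higher and 25.1% lower). From day 6 to day 8 the same 7 members rose as in untreated EBs (16.8% of all genes higher) and 0 fell (24.7% lower). Ttr rose by 4.17, Rbp4 by 3.43, Apob by 2.61, Apom by 2.01 and Apoa1 by 1.24. Afp and Apoa4 rose by 0.66 and 0.55. The earlier falls rested on few arrays, since Apoa4 lost its call in 4 of 6 fits without 1 array, Apoa2 in 2 and Trf in 1 (adjusted p up to 0.175, 0.101 and 0.0893). From day 8 to day 12, 5 members rose (16.5% higher) and 2 fell (16.7% lower). Afp rose by 2.87, Alb by 1.80, Apoa1 by 1.66, Trf by 0.43 and Apoa2 by 0.33, whereas Apom fell by 1.17 and Ttr by 1.15. The Ttr fall had an adjusted p of 0.0262 and was lost without treated day 8 replicate 1 (-0.99, 0.093) or 3 (-1.19, 0.0509) and without treated day 12 replicate 1 (-1.05, 0.0866) or 3 (-1.14, 0.0657). The small rises of Trf and Apoa2 also hung on single arrays: Trf was lost without treated day 12 replicate 1 (0.31, 0.0618), and Apoa2 without treated day 8 replicate 3 (0.30, 0.0528) or treated day 12 replicate 3 (0.25, 0.0955).

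The first question of the design is how EBs given the calcineurin inhibitors differed from untreated EBs of the same day. On day 4, after 1 day of drug, 0 of 10 members were called, and their differences lay between -0.17 and 0.17. Over all genes 0.00502% were called higher and 0% lower on that day. On day 6, 0 of 10 were called (1.26% of all genes higher, 0.577% lower), and no member reached an unadjusted p under 0.05 on either day in limma's test. Ttr read 7.13, 7.23 and 7.45 in the untreated arrays of day 6 and 7.95, 7.57 and 8.67 in the treated ones. The lowest treated array lay above the highest untreated one, but the difference of 0.79 had an adjusted p of 0.427. Rbp4 likewise did not overlap, at 8.08, 7.83 and 8.06 against 8.51, 8.25 and 8.39, with a difference of 0.39 and an adjusted p of 0.782. These were 2 of 10 members with all treated arrays above, beside 12.1% of all genes.

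By day 8, 5 members were higher in treated EBs (Ttr, Rbp4, Apob, Apoa1 and Apom) and 0 were lower, beside 4.86% of all genes called higher and 4.08% called lower. The same 5 were the members with all treated arrays above all untreated ones (9.37% of all genes). The median difference of the 10 members was 0.43, and that of all genes was -0.04. The transport pair Ttr and Rbp4 circulates as a complex in adult blood, and both were higher after treatment. Ttr read 11.83, 9.54 and 10.25 in the untreated arrays and 12.56, 11.98 and 12.16 in the treated ones. The treated arrays were all higher and lay closer together, and the lowest of them was only just above untreated replicate 1. The difference was 1.69 (SE 0.39, a fold of 3.23, adjusted p = 0.00981). Rbp4 read 10.93, 8.83 and 9.57 against 12.18, 11.39 and 11.85, again with no overlap and with replicate 1 the highest in both groups, a difference of 2.03 (SE 0.37, 4.07-fold, adjusted p = 0.00209).

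The lipoprotein genes were split on day 8. Apob read 8.59, 7.64 and 7.72 in the untreated and 10.47, 9.58 and 9.88 in the treated arrays of day 8. The lowest treated array lay well above the highest untreated one, and the difference was 1.99 (SE 0.27, 3.99-fold, adjusted p = 0.000306). Apom read 7.11, 6.33 and 6.45 against 8.80, 7.76 and 7.82, with no overlap and a difference of 1.50 (SE 0.20, 2.83-fold, adjusted p = 0.000306). Apoa1 read 8.22, 8.22 and 7.95 against 9.12, 8.59 and 8.86, also without overlap. Its difference was smaller, at 0.72 (SE 0.14, 1.65-fold, adjusted p = 0.00338). Apoa2 and Apoa4, its relatives, differed by -0.04 and 0.03, with arrays that overlapped.

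The bulk proteins did not follow on day 8. Afp read 7.13, 6.75 and 6.61 in untreated and 7.06, 6.88 and 6.93 in treated EBs, and Alb read 5.76, 5.83 and 5.76 against 5.62, 5.87 and 5.71. The arrays of both genes overlapped, with differences of 0.13 (95% interval -0.12 to 0.37) and -0.05 (-0.37 to 0.28). Trf differed by 0.06 (-0.18 to 0.30). These intervals exclude differences of the size seen in Apom on that day, and they do not show that the levels were equal.

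On day 12, 4 days after the drugs were withdrawn, 7 members were higher in treated EBs and 0 lower, beside 7.49% of all genes called higher and 10.4% lower. The treated arrays lay above all untreated ones in 9 members (15.4% of all genes), and the median difference was 1.07 for the 10 members and 0.02 for all genes. Afp read 8.67, 8.36 and 8.39 in untreated and 9.85, 9.87 and 9.74 in treated EBs. The groups were tight and stood more than 1 apart, with a difference of 1.35 (SE 0.12, 2.55-fold, adjusted p = 1.84e-07). Alb read 6.43, 5.93 and 6.51 against 7.75, 7.02 and 7.81. Replicate 2 was the lowest in both groups, and the groups did not overlap (1.24, SE 0.16, 2.36-fold, adjusted p = 1.23e-05). Trf read 7.69, 7.58 and 7.67 against 8.34, 7.78 and 8.21, a small difference of 0.46 (SE 0.12, 1.38-fold, adjusted p = 0.00754) in which treated replicate 2 lay just above the untreated arrays.

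Ttr and Rbp4 were still higher on day 12, with weaker tests. Ttr read 9.24, 10.58 and 9.92 in untreated and 10.88, 11.30 and 11.07 in treated EBs, a difference of 1.17 (SE 0.39, 2.25-fold, adjusted p = 0.0416). Rbp4 read 9.81, 11.51 and 10.84 against 11.86, 12.12 and 11.85, a difference of 1.22 (SE 0.37, 2.32-fold, adjusted p = 0.023). In both genes the treated arrays lay close together, while the untreated ones spread over more than 1 on the log2 scale, with replicate 1 the lowest. Apob showed the same shape at 7.87, 9.40 and 8.61 against 9.58, 9.70 and 9.55, a difference of 0.98 (SE 0.27, 1.97-fold, adjusted p = 0.0127).

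In the fit of all arrays Apoa1 had the largest day 12 difference of the 10, at 1.45 (SE 0.14, 2.74-fold, adjusted p = 6.78e-07), with untreated arrays at 8.65, 9.38 and 9.16 and treated ones at 10.61, 10.56 and 10.38. Apom read 6.42, 6.67 and 6.42 against 6.79, 7.13 and 6.95. It did not overlap and was not called (0.45, adjusted p = 0.126). Apom was called with the replicate number as a block within day (0.000643) and in the fit of the 6 compared arrays (0.0275). A block across days did not call it. Apoa4 read 7.51, 7.58 and 7.60 against 7.69, 7.79 and 8.10, a difference of 0.30 (adjusted p = 0.116, and 0.0198 with array weights). Apoa2 overlapped, at 8.20, 8.01 and 8.16 against 8.12, 8.28 and 8.43 (0.15, adjusted p = 0.328). Over both days, 8 of the 10 members were called at least once, 4 of them on both days (Ttr, Rbp4, Apob and Apoa1), and Apoa2 and Apoa4 on neither. The shares of all genes called on either day or on both were not counted.

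**Figure D2:**
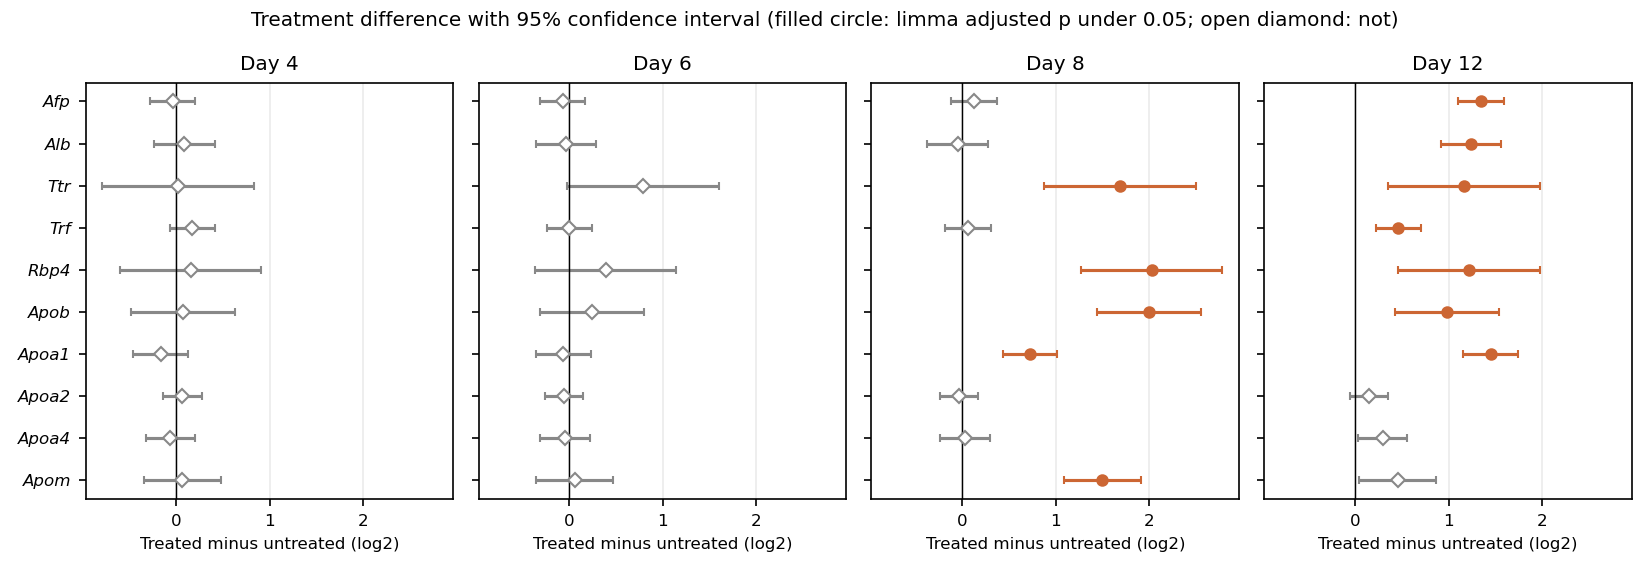
Difference of treated and untreated EBs (x axis, log2) for each member at days 4, 6, 8 and 12, with 95% confidence intervals from limma over 24 arrays; filled circles are called and open diamonds are not. No member is called on day 4 or 6, 5 are on day 8 and 7 on day 12, and no called member lies below 0.

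Single arrays decided some of these calls. On day 8, Rbp4, Apob, Apoa1 and Apom stayed called whichever of the 6 arrays was left out. Ttr was lost without untreated day 8 replicate 2 (1.19, adjusted p = 0.0991) and without treated day 8 replicate 1 (1.53, 0.0784). When only the 6 arrays of day 8 entered the fit, 0 of the 5 were called, at adjusted p from 0.11 to 0.169, as were 0 of all 19938 genes, and all 5 had an unadjusted p under 0.05 in limma's test. On day 12, Afp, Alb and Apoa1 stayed called in every such fit, and the other 4 did not.

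Without untreated day 12 replicate 1 the day 12 difference of Ttr was 0.83 (adjusted p = 0.198), that of Rbp4 0.76 (0.16) and that of Apob 0.60 (0.103). That array was the lowest untreated one in all 3 of these members. Ttr was called in 1 of the 6 fits without an array, and was also lost without untreated day 12 replicate 3 (1.17, 0.0872) and without treated day 12 replicate 1 (1.27, 0.0702), 2 (1.06, 0.1) or 3 (1.18, 0.107). Rbp4 was called in 2, and was also lost without treated day 12 replicate 1 (1.26, 0.0544), 2 (1.13, 0.0577) or 3 (1.26, 0.0584). Trf was lost without treated day 12 replicate 1 (0.35, 0.0674). In the fit of the 6 day 12 arrays Trf (adjusted p = 0.0511) and Apob (0.0654) missed the threshold. With an intensity trend and a robust prior, set together, Ttr (0.0813) and Rbp4 (0.0504) did.

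The treatment difference itself changed with the day, as tested by limma's interaction of treatment and day. From day 4 to day 6 it changed in 0 of 10 members (0.0752% of all genes higher, 0.0201% lower), with 0 at an unadjusted p under 0.05. From day 6 to day 8 it rose in 2 of 10 and fell in 0 (0.221% of all genes higher, 0.181% lower): Apob by 1.75 (SE 0.38, adjusted p = 0.0434) and Apom by 1.44 (SE 0.28, adjusted p = 0.0231). Rbp4 had a change of 1.64 (adjusted p = 0.187) and Apoa1 of 0.79 (0.0773). With the replicate number as a block within day both passed, at adjusted p = 0.0113 and 0.0373, and with a block across days neither did. Leaving out 1 of the 12 arrays ended the Apob call in 9 fits (1.51 to 1.82, adjusted p up to 0.178) and the Apom call in 7 (1.11 to 1.46, up to 0.0971). The change of Ttr was 0.90 (adjusted p = 0.577), so its day 8 difference was not shown to exceed that of day 6.

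From day 8 to day 12 the difference rose in 3 members and fell in 1 (2.63% of all genes higher, 2.57% lower). It rose by 1.22 in Afp (SE 0.17, adjusted p = 0.000303), by 1.29 in Alb (SE 0.22, 0.00217) and by 0.73 in Apoa1 (SE 0.20, 0.0362), and fell by 1.04 in Apom (SE 0.28, 0.0338). Afp and Alb kept this call in each of the 12 fits without 1 array. Apoa1 kept it in 6 of the 12 (0.52 to 0.73 in those that lost it, adjusted p up to 0.0929) and Apom in 5 (-0.71 to -1.09 in those that lost it, up to 0.101). The change of Apob was -1.01 (adjusted p = 0.12, and 0.0156 with the replicate block within day). Ttr and Rbp4 had changes of -0.52 and -0.81, not called (adjusted p = 0.598 and 0.36). The days 8 and 12 comparisons share no arrays, but the 2 interactions share those of day 8.

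Same-numbered arrays were set against each other, with the number read as the experiment, a link that the labels do not state. On day 8 the treated array was above its same-numbered untreated array in 3 of 3 experiments for 6 members, and on day 12 for 9. These counts were not made over all genes, so they have no share to stand beside. Apob differed by 1.88, 1.94 and 2.16 in experiments 1, 2 and 3 on day 8, and Apom by 1.69, 1.44 and 1.37. These were even, although the levels of both genes varied between experiments. Ttr was uneven, at 0.72, 2.44 and 1.91, and so was Rbp4, at 1.25, 2.55 and 2.28. On day 12 experiment 2 had the smallest differences of Ttr (0.72), Rbp4 (0.60) and Apob (0.30), and experiment 1 the largest (1.64, 2.04 and 1.71).

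Untreated replicate 1 was the highest of its day 8 group in 8 of 10 members, and treated replicate 1 likewise in 8 of 10. On day 12 untreated replicate 1 was the lowest in 6. The share of all genes with such an order of arrays was not counted. Several members varied together between arrays of 1 group. Their deviations from the group means over the 24 arrays correlated at 0.88 for Ttr with Rbp4 and 0.86 for Rbp4 with Apob. Those of Apob correlated at 0.77 with Apoa1 and 0.70 with Apom. These values are a description, since the arrays may share experiments. The deviations of Alb ran the other way against each of Ttr, Rbp4, Apob, Apoa1 and Apom, at -0.40 to -0.45.

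**Figure D3:**
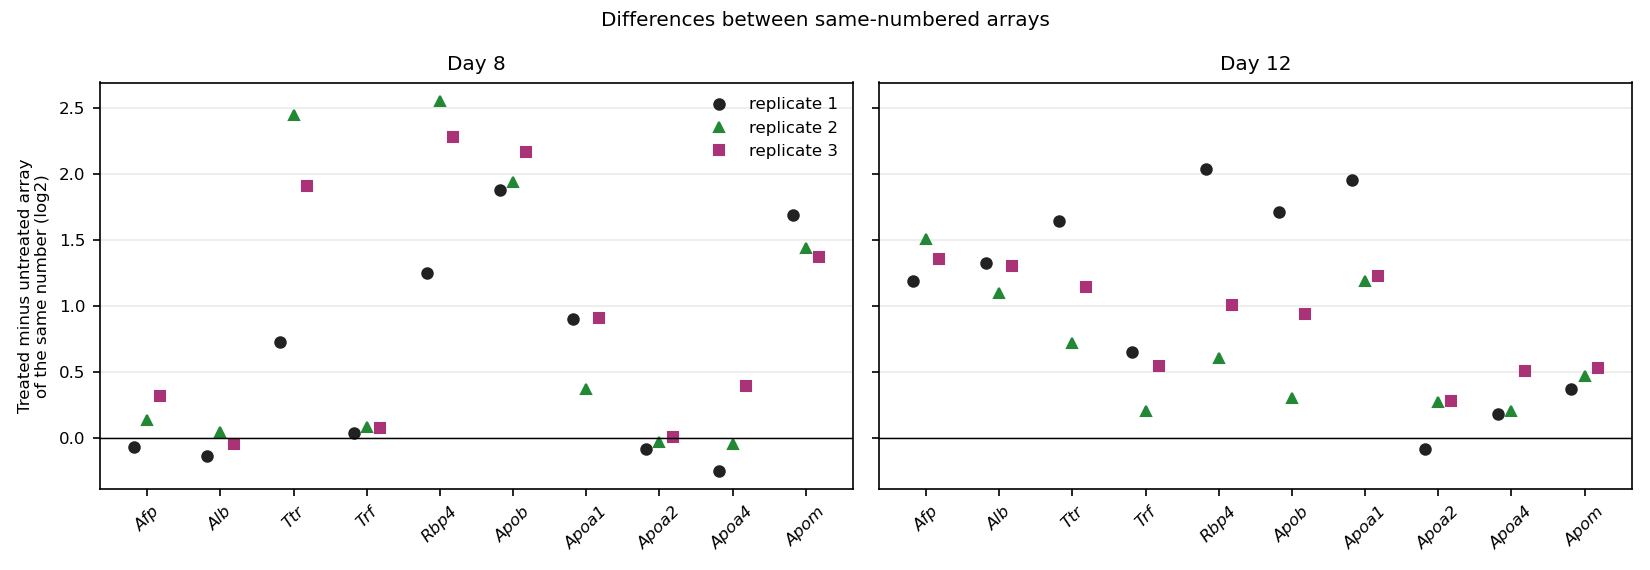
Treated minus untreated signal (y axis, log2) between arrays of the same replicate number for each member (x axis) on days 8 and 12; circles, triangles and squares are replicates 1, 2 and 3. Apob and Apom are even across replicates on day 8, while Ttr and Rbp4 are lowest in replicate 1 on day 8 and highest in it on day 12.

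Other secreted serum proteins of liver and visceral endoderm formed a list of 22, of which 21 were measured. On day 8, 1 of the 21 was higher and 0 lower (4.86% and 4.08% of all genes), with a median of -0.07 (all genes -0.04). The single gene was Fgb, a fibrinogen chain, which was named after its value was seen (0.72, adjusted p = 0.0119, arrays overlapping). On day 12, 5 were higher and 1 lower (7.49% and 10.4% of all genes), with a median of 0.17 (all genes 0.02). Serpinf2, an inhibitor of plasmin, was higher by 0.60 (adjusted p = 0.000295), the haem carrier Hpx by 0.61 (0.000653) and the apolipoprotein Apoe by 0.55 (0.00338). The other higher genes, Ambp (0.43, 0.0243) and Kng1 (0.32, 0.0311), were named after their values were seen, as were those introduced as the remaining calls of the lists below. Vtn, the adhesive serum protein vitronectin, was lower (-1.50, adjusted p = 1.45e-05). Apoc3, which lies between Apoa1 and Apoa4 on the chromosome, differed by -0.15 on day 8 and 0.17 on day 12 and was not called (adjusted p = 0.394 and 0.258).

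Genes that handle the members' cargo were split. Of 16 measured genes of lipoprotein assembly, retinol and iron handling, 3 were higher and 1 lower on day 8, and 3 were higher and 3 lower on day 12. Mttp, the protein that loads lipid onto Apob, read 8.70, 8.06 and 8.13 in untreated and 9.68, 9.11 and 9.21 in treated EBs on day 8. The groups did not overlap (1.04, SE 0.16, adjusted p = 0.000863), and on day 12 Mttp was not called (0.36, adjusted p = 0.129), as Apom was not. Slc40a1, the iron exporter, differed by 0.06 on day 8 (adjusted p = 0.851) and was higher by 1.73 on day 12 (4.01e-07). Tfrc, the transferrin receptor, was lower on day 12 (-0.45, adjusted p = 0.00165), and Stra6, a receptor for Rbp4, was lower on both days (-0.40 and -0.46, adjusted p = 0.0113 and 0.00145). The remaining calls were Lrp1 (0.49) and Rdh10 (0.42), higher on day 8, and Rdh10 (0.44) and the cholesterol exporter Abca1 (0.37), higher, and Slc11a2 (-0.26), lower on day 12.

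The label was checked against a list of absorptive and other defining genes of visceral endoderm, 19 of 22 measured. On day 8, 7 were higher in treated EBs and 1 lower (median 0.19), and on day 12, 6 were higher and 1 lower (median 0.35). Dab2, an adaptor of endocytosis, was higher by 1.36 (adjusted p = 0.000306) and 0.82 (0.00294), the peptidase Dpp4 by 1.93 (0.000512) and 1.08 (0.00887), and the lysosomal protease Lgmn by 0.78 (0.000306) and 0.40 (0.00887). S100g, a calcium-binding protein, was higher on day 8 (0.92, 0.000512) and was not called on day 12 (0.38, 0.0517). The receptor subunits did not move as one: Cubn was higher on day 8 (1.31, 0.0282) and not called on day 12 (0.90, 0.0968), Amn was called on neither day (-0.10 and 0.23; 0.632 and 0.164), and Lrp2 was lower on day 12 (-0.90, 0.00961). The remaining calls were the protease genes Ctsh (1.59 on day 8, 0.79 on day 12) and Habp2 (1.12 and 0.90), higher on both days, Nostrin, higher on day 12 (0.35), and Pga5, the single gene lower on day 8 (-0.69). The mean level of the 19 genes ran from 8.42 to 8.91 in the untreated and from 8.96 to 9.22 in the treated arrays of day 8, and from 8.06 to 8.39 against 8.34 to 8.68 on day 12. These genes therefore moved on the same days as the serum protein genes in part, and their part in the result was not tested.

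Of 19 measured transcription factors of endoderm, 2 were higher and 1 lower on day 8, and 5 were higher and 5 lower on day 12. Hnf4a, which acts on many serum protein genes in liver, read 8.58, 8.42 and 8.34 in untreated and 9.34, 9.04 and 8.91 in treated EBs on day 8, and 8.12, 8.45 and 8.31 against 8.74, 9.18 and 8.91 on day 12. It did not overlap on either day, and was higher by 0.65 on both (adjusted p = 0.00194 and 0.00036). Gata4 and Gata6 were not called on day 8 (0.46 and 0.44, adjusted p = 0.199 and 0.171) and were higher by 1.04 and 1.22 on day 12 (0.00197 and 0.000142). Foxa2 was lower on day 12, at a mean of 8.35 in treated against 9.35 in untreated EBs (adjusted p = 0.000383), as were Foxa1 (-1.26, 4.09e-06) and Prox1 (-0.79, 0.000321). The remaining calls were Zbtb20 (0.27) higher and Hhex (-0.57) lower on day 8, and Foxa3 (0.40) and Nr5a2 (0.47) higher and Onecut1 (-0.55) and Nr2f1 (-0.41) lower on day 12. Sox17 and Sox7 were called on neither day, with differences from -0.03 to 0.23.

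**Figure D4:**
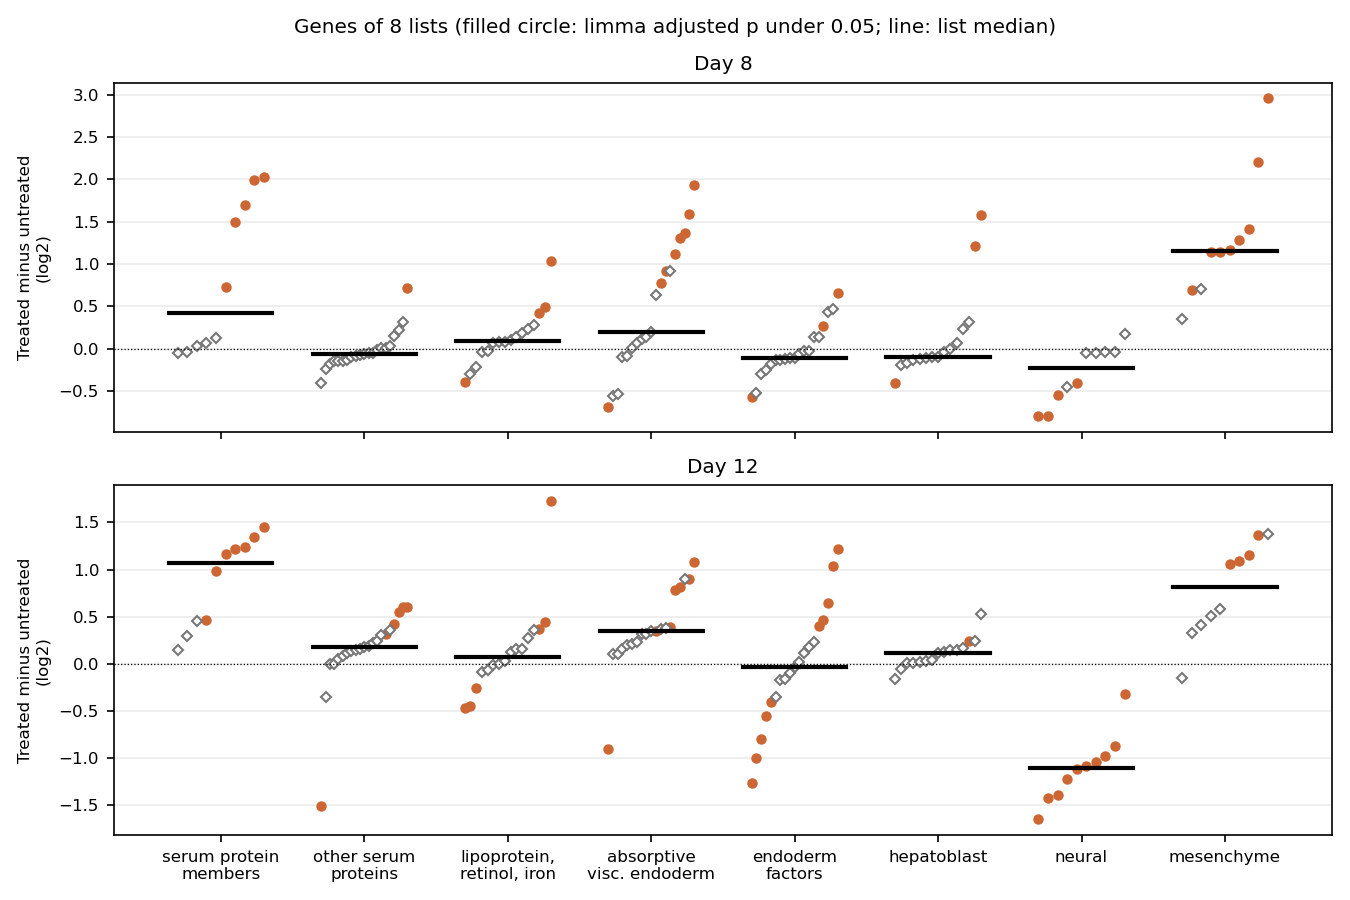
Treated minus untreated difference (y axis, log2) of each measured gene of 8 lists (x axis) on day 8 and day 12; filled circles are called by limma, open diamonds are not, and the bar is the list's median. The serum protein members have a median of 0.43 on day 8 and 1.07 on day 12, and the other serum proteins -0.07 and 0.17.

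Markers of the other tissues that make these proteins, or that EBs hold, were read beside them. Of 15 hepatoblast and hepatocyte genes beyond serum proteins, 2 were higher (Dlk1 by 1.22 and Tdo2 by 1.58) and 1 lower (Met, -0.41) on day 8, and 1 was higher on day 12 (Igfbp1, 0.24). Their mean level ran from 7.59 to 7.90 in untreated and from 7.75 to 7.95 in treated arrays on day 8, and from 7.60 to 7.63 against 7.69 to 7.78 on day 12. Choroid plexus epithelium also makes Ttr: of 11 of its genes 2 were higher and 1 lower on day 8, and 2 were higher and 2 lower on day 12, with mean levels of 7.77 to 7.99 against 7.85 to 7.98 and of 7.74 to 7.83 against 7.70 to 7.89. Oligodendrocytes also make Trf: of 9 genes 1 was higher and 1 lower on day 8, and 2 were higher and 2 lower on day 12 (8.03 to 8.24 against 7.95 to 8.13). The lower ones on day 12 were Olig2 (-1.07) and Nkx2-2 (-1.55), and the higher ones Pdgfra (1.21) and Cnp (0.31). On day 8 Pdgfra was higher (0.88) and Nkx2-2 lower (-0.37). Of the choroid plexus genes Msx1 was higher on both days (0.65 and 0.60), Folr1 on day 8 (0.60) and Calml4 on day 12 (1.13), while Otx2 was lower on both (-1.52 and -1.39) and Sostdc1 on day 12 (-0.74).

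Among the other layers, 4 of 12 parietal endoderm genes were higher and 0 lower on day 8 (mean level 9.43 to 9.73 against 9.63 to 10.09), and 3 were higher and 0 lower on day 12 (9.75 to 9.80 against 9.96 to 10.05). Definitive endoderm and gut genes (16) had 2 higher and 3 lower on day 8 (8.73 to 8.85 against 8.39 to 8.66) and 2 higher and 4 lower on day 12 (8.20 to 8.33 against 7.99 to 8.31), with Cer1 lower on day 8 (-2.45, adjusted p = 0.00144) and Shh on day 12 (-1.30, 9.42e-07). Blood genes had 0 of 9 called on either day (1 and 0 with an unadjusted p under 0.05 by limma on days 8 and 12) and cardiac genes 0 of 10 (0 and 1). The parietal genes called were Pdgfra and Sparc on both days, Lamb1 and Col4a1 on day 8 and Lamc1 on day 12. The gut genes called higher were Cdx2 and Vil1 on both days, and those lower were Cer1, Trh and Shh on day 8 and Shh, Foxa2, Cxcr4 and Nkx2-1 on day 12. The largest shifts on day 12 lay in the neural list, where 10 of 10 were lower (4 lower and 0 higher on day 8; mean level on day 12 9.50 to 9.89 against 8.36 to 8.91). Of the 9 pluripotency genes 7 were higher on day 12 (8.15 to 8.43 against 8.87 to 9.15) and 1, Pou5f1, lower on day 8 (10.06 to 10.29 against 9.40 to 10.39). Mesenchyme genes were higher on both days, 8 of 10 on day 8 (8.62 to 9.35 against 9.31 to 10.97), with Postn by 2.96 and Col1a1 by 1.41, and 4 of 10 on day 12 (10.88 to 11.30 against 11.67 to 12.08), Dcn, Col1a1, Col1a2 and Col3a1. Over all genes, 4.86% were called higher and 4.08% lower on day 8, and 7.49% and 10.4% on day 12. A few calls therefore do not set a list apart from all genes. The part of these tissue lists in the serum protein result was not tested.

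The genes whose course over the 24 arrays was most like that of the members were ranked by the correlation with the mean of the members' standardised signals. Anxa6 led at 0.98, followed by Cygb at 0.97, Loxl1 and Sting1 at 0.96, Prss35 and Maf at 0.96, Nepn, Col5a1, Adam12 and Bnc1 at 0.95 to 0.96. The points fall into 8 groups and may share experiments, so these correlations describe the pattern only. The mean blends unlike courses, since from day 8 to day 12 treated Afp and Alb rose while Ttr and Apom fell. Prss35, a secreted protease-like protein, stood at 7.77 and 9.57 in untreated and treated EBs of day 8, and at 9.04 and 11.17 on day 12. Among the members, Apoa1 was closest to the mean of the other 9 (0.93), and Trf was farthest from it (0.17).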

How the data were processed

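Gene expression was measured on 24 arrays, 3 in each of 8 groups. Per the submitters' processing notes, the authors computed the deposited log2 signals by RMA with the program Affymetrix Expression Console. Tool versions, array library files and the genome build were not given in the sources used here, and the log2 scale was read from the range of the values. Of 35556 probe sets, 21789 carried 1 symbol, 1621 several, and 12146 were not listed. The probe set of highest mean stood for each of the 999 genes that had several. A limma 3.58.1 model in R 4.3.3 (1 mean per group on all arrays, with 16 residual degrees of freedom, then eBayes) gave differences, 95% intervals and p-values adjusted by Benjamini-Hochberg over 19938 genes within each contrast. It was tested on simulated data. Python 3.11.15 with pandas 2.3.3, numpy 2.4.6 and matplotlib 3.10.9 made tables and plots.

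The members and the gene lists were chosen with earlier results of these data known. Named were all 10 members, up to 4 genes of each other list by smallest p in any treatment contrast, fixed endoderm genes, and the 10 genes most like the members. To check pairing, deviations from the group mean were correlated between same-numbered arrays. They correlated above 0.1 for every number on day 6 (0.14 to 0.30), day 8 (0.11 to 0.55) and day 12 (0.12 to 0.34), but not on day 4 (-0.05 to 0.19). Replicate 3 correlated better with an array of another number on day 8 (0.126 against 0.107) and day 12 (0.264 against 0.253). Between days, same-numbered untreated arrays correlated at 0.20, 0.16 and 0.16 for day 8 against day 6. For untreated day 12 against day 8 they correlated at 0.05, -0.11 and -0.27. The labels number biological replicates and the design text names 3 independent experiments, but neither links them. The numbers were read as pairs for the same-numbered differences of days 8 and 12, and as blocks in alternative fits only. The reported fit holds no block. Alternatives were dropping genes below the 40th percentile, quantile normalization, median centring, an intensity trend together with a robust prior, and array weights. Further ones were a block for the replicate number, within day or across days, fitting the compared groups only, and leaving out each array in turn.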

Additional observations from a re-analysis of the deposited data

Results flagged for a closer look

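The treatment difference, treated minus untreated, changed between neighbouring days in 5 of the 10 members by limma's interaction test, which singled out 6 results. Over all genes the difference rose in 0.221% and fell in 0.181% from day 6 to day 8, and in 2.63% and 2.57% from day 8 to day 12. Apob had a difference that was larger on day 8 than on day 6 by 1.75 on the log2 scale, and Apom by 1.44. From day 8 to day 12 the difference grew by 1.22 in Afp, by 1.29 in Alb and by 0.73 in Apoa1. In Apom it changed by -1.04 over the same step, the opposite direction. Of the 12 fits without 1 array, 9 lost the Apob call, 7 the Apom call of either step and 6 that of Apoa1. Afp and Alb kept theirs in all 12. Afp and Alb lie next to each other on chromosome 5 with 0 annotated genes between them. Both gained their treatment difference in signal in the same interval, after the drugs were withdrawn. Their low signals on day 8 were not shown to lie above background.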

How the results depend on the processing

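Of 414 alternative counts of called members, 353 stayed within 1.5 times the reported count. Many of the reported counts were 0 and mostly stayed 0, so this pooled figure says little of the calls made. The count of members higher on day 8 stayed in that range in 14 of 15 alternatives, and that of day 12 in 13 of 15. The growing differences from day 6 to day 8 did so in 6 of 21, and the shrinking ones from day 8 to day 12 in 8 of 21. No called member reversed its direction in any setting tried. In the fit of the compared arrays alone, 0 members were called higher on day 8 in place of 5 (0 of all genes were called there), 1 rose from day 4 to day 6 in untreated and 1 in treated EBs, 0 showed a growing difference from day 6 to day 8 (4 with an unadjusted p under 0.05 by limma; over all genes 2 growing and 1 shrinking were called), and 0 a shrinking one from day 8 to day 12 (1 with an unadjusted p under 0.05). Dropping genes below the 40th percentile removed Afp, Alb, Apoa4 and Apom by construction, and left 1 fall from day 4 to day 6 and 4 and 2 rises over the next steps in untreated EBs. In treated EBs it left 4 rises from day 6 to day 8, then 3 rises and 1 fall. It left 1 growing difference from day 6 to day 8, and 1 growing and 0 shrinking (1 with an unadjusted p under 0.05 by limma) from day 8 to day 12. Quantile normalization left 1 fall in untreated EBs from day 4 to day 6, median centring gave 5 falls in treated EBs over that step, and array weights 1 rise and 5 falls. The intensity trend with robust prior left 1 fall in treated EBs from day 8 to day 12 and 1 growing difference from day 6 to day 8. Array weights gave 4 growing differences over that step and 2 shrinking ones from day 8 to day 12. The replicate block within day gave the same counts, 4 and 2, and beside the values given with it above it changed no other call of a treatment difference or its change. The replicate block across days ended the Rbp4 rise of untreated EBs from day 8 to day 12 (adjusted p = 0.0503).

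With each array left out in turn, the counts of members ran from 4 to 5 higher on day 8 and from 4 to 7 on day 12. In untreated EBs they ran from 0 to 1 falls from day 4 to day 6, 3 to 7 rises from day 6 to day 8, and 2 to 5 rises and 0 to 1 falls from day 8 to day 12. In treated EBs they ran from 1 to 3 falls, 7 to 8 rises, and 4 to 5 rises and 1 to 2 falls over the same steps. Growing differences ran from 0 to 4 from day 6 to day 8 and from 2 to 4 from day 8 to day 12, and shrinking ones from 0 to 2 over the latter. Over all genes the calls on day 8 ran from 0 to 2140 higher and from 0 to 3018 lower across the settings (968 and 813 as reported). The share of calls that were higher moved from 54.4% to 65.6% on day 8 and from 68.6% to 54.4% on day 6 under another scaling, and that of the growing differences from day 6 to day 8 from 55.0% to 69.7%. Scanner files and detection calls were not used here, so signal over background is unknown, and 3 arrays a group limit the precision.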
